A study of Caenorhabditis elegans with 95 samples.

Results

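The proteasome subunits of *C. elegans* were followed on whole-animal expression arrays through temperature cycles, light cycles and the free-running day after each. The members are the probe sets whose single gene symbol begins with pas, pbs, rpn or rpt followed by a number. They are 39 of the 22548 probe sets left after the array controls were removed, and they stand for 33 genes, of which 6 have 2 probe sets each. The core particle is represented by 14 genes and the regulatory particle by 19 genes. All animals were wild-type Bristol N2 adults grown on *E. coli* HB101 and moved at the L4 stage to plates with 25 µM FUDR, an inhibitor of DNA synthesis that blocks embryo development. WC animals lived in constant darkness in daily cycles of a warm phase (25°C) and a cold phase (15°C) of equal length, and CC animals were kept at a constant 15°C after such cycles. LD animals lived at 18°C with equal phases of light and darkness each day, and DD animals were kept in constant darkness after such cycles. Non-entrained controls of the light experiments were held in complete darkness. The arrays numbered 30 in WC, 18 in CC, 18 in LD, 18 in DD and 11 in the controls, in 5, 3, 3, 3 and 2 time series taken at hours 2, 6, 10, 14, 18 and 22 of the cycle or at the corresponding hours of the free-running day. Control series 6 has no array at hour 6. Within a condition each time series was an independent experiment, and 5 arrays (3 in CC and 2 in LD) each stand for 2 biological replicates. Entrained and free-running days of LD and DD series 4 and 6, and of WC and CC series 3, 4 and 6, were centred together, so such days are linked.

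The proteasome is the protease complex that degrades proteins tagged with ubiquitin in the nucleus and cytoplasm. Its barrel-shaped core is built of outer rings of α subunits (pas genes), which gate the entrance, and inner rings of β subunits (pbs genes), some of which carry the protease sites. The regulatory particle caps the core: its base holds a ring of ATPases (rpt genes) that unfold substrates together with scaffold and ubiquitin-binding subunits, and its lid (the other rpn genes) removes ubiquitin chains. In yeast and mammals the genes of the complex are known to be regulated together.

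Values are scores: each was expressed by the authors relative to its time series and each array was then scaled to unit variance, so a score is a deviation in array standard deviations and shows neither the level of a gene nor a fold change. The phase difference used below is the mean score at hours 2, 6 and 10 (warm, light, or the matching subjective hours of a free-running day) minus the mean at hours 14, 18 and 22. Populations in opposing cycles were raised in each experiment, so the hours before and after hour 12 may come from different animals, and phase and population cannot be told apart. In whole animals, fewer cells of a type and less RNA per cell cannot be told apart either.

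Subunit scores varied less than those of most features kept for testing. All 39 probe sets passed the filter against the array floor in each condition. That floor lay near 0 (−0.106 to 0.105 over the WC arrays), so the filter removed probe sets whose scores hardly varied. It kept 17342 of the 22548 probe sets in WC, and the medians over all features below exclude the least variable sets. The median SD of the 33 genes over the WC arrays was 0.326, against 0.723 over all features tested there, and over the CC arrays it was 0.269, against 0.595. In every condition 32 of the 33 genes varied less than the median of the features kept. The exception was rpn-6.2, a paralog of the lid gene rpn-6.1, in WC, CC, LD and DD (SD of 1.17 in CC), and the lid gene rpn-8 in the controls (0.867). Of the 39 probe sets, 26 have IDs with the suffix that Affymetrix gives to sets matching more than a single transcript, so values of such sets may mix related transcripts.

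**Figure D1:**
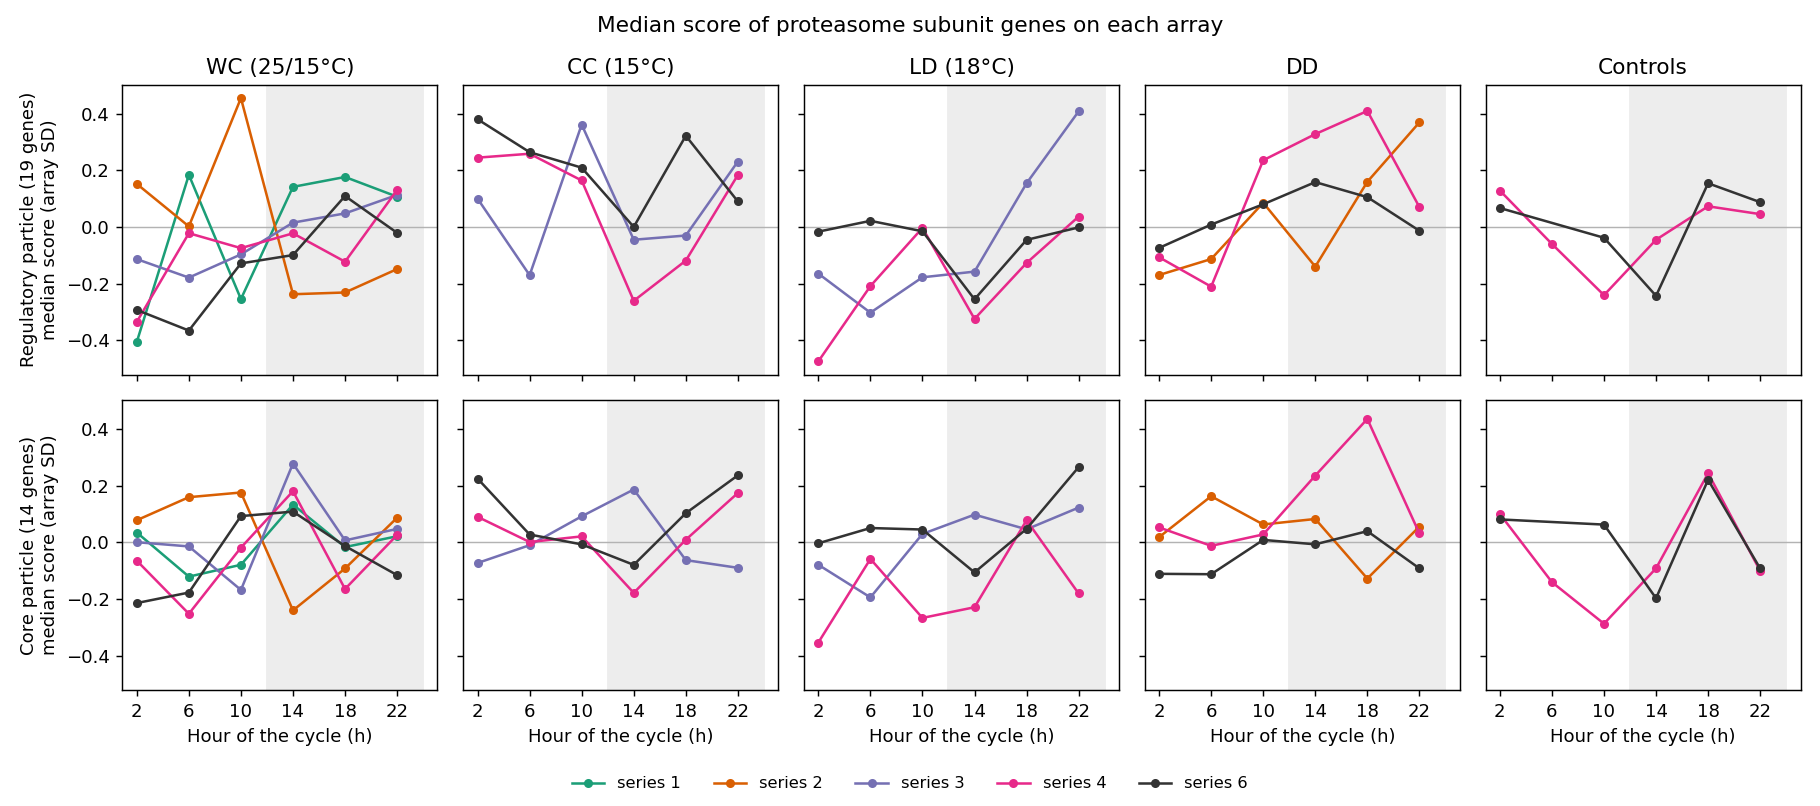
Median score (array SD) of the 19 regulatory particle genes (top) and the 14 core genes (bottom) on each array against the hour of the cycle, with a line for each time series; the shaded hours are cold, dark or their subjective counterparts. The regulatory median of WC series 2 was 0.455 at hour 10, against −0.254 to −0.0747 in the other WC series.

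In the temperature cycles no subunit passed the test for a phase difference. With limma and adjustment over all features, 0 of 39 probe sets were called in WC, where 2.54% of all features were, and 6 of 39 (15.4%) had an unadjusted p under 0.05, against 15.7% of all features. The members' median difference between warm and cold was −0.072, against −0.016 over all features, and 12 of 39 lay above 0. The 6 probe sets with an unadjusted p under 0.05 were both sets of rpn-2 and single sets of pbs-5, rpn-1, pbs-2 and rpn-10, all lower at the warm hours. Among the genes of the α ring, the median difference was 0.0099, among the ATPases −0.0032, among the β ring −0.085, in the lid −0.089 and among the other base subunits −0.22.

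rpn-2, a scaffold of the base that holds the lid and ubiquitin-handling proteins, averaged −0.53, 0.13, −0.18, −0.12 and −0.49 at the warm hours of WC series 1, 2, 3, 4 and 6, against 0.61, 0.011, 0.28, −0.032 and 0.025 at the cold hours. It was thus lower in the warm phase in 4 of the 5 series and slightly higher in series 2, and the ranges of both phases overlapped. Its difference was −0.42 ± 0.15 (SE; adjusted p = 0.149), and the second probe set of the gene gave −0.81 (adjusted p = 0.149). The other large base scaffold, rpn-1, averaged −0.46, 0.27, −0.22, −0.18 and −0.54 at the warm hours, against 0.53, 0.056, 0.26, 0.028 and −0.073 at the cold hours, with the same exception of series 2 (difference −0.39, adjusted p = 0.216).

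pbs-5, the β subunit whose yeast counterpart has the chymotrypsin-like site, averaged −0.37, 0.14, −0.061, −0.25 and −0.27 at the warm hours of the 5 series, against 0.41, −0.039, 0.16, −0.023 and 0.069 at the cold hours (difference −0.28, adjusted p = 0.197). Series 2 was again the only series in which the warm hours were higher. pbs-2, the counterpart of the yeast subunit with the trypsin-like site, averaged −0.29, 0.055, −0.22, −0.06 and −0.3 at the warm hours, against 0.36, −0.13, 0.52, −0.1 and 0.14 at the cold hours. Its warm hours were lower in series 1, 3 and 6 and higher in series 2 and 4 (difference −0.32, adjusted p = 0.219).

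In the lid, rpn-11, the subunit that cuts ubiquitin chains off substrates, averaged −0.3, −0.014, −0.095, −0.13 and −0.42 in the warm phase and 0.35, −0.2, 0.2, −0.19 and 0.077 in the cold phase of series 1, 2, 3, 4 and 6 (difference −0.24, adjusted p = 0.38). The lid subunit rpn-7 averaged −0.17, 0.26, −0.17, −0.22 and −0.27 in the warm phase and 0.18, −0.084, −0.024, 0.14 and 0.039 in the cold phase (difference −0.17, adjusted p = 0.455). For both lid genes the warm and cold ranges overlapped. The 95% intervals ran between −0.51 and 0.026 for rpn-11 and between −0.37 and 0.042 for rpn-7. Over all members in WC the median half-width of the interval was 0.27.

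Series 2 stood apart. All 19 regulatory genes were higher in the warm hours of series 2 (median difference 0.405), whereas 13, 18, 11 and 18 of the 19 were lower in series 1, 3, 4 and 6. In the core, 11 of 14 genes were higher in series 2, and 8, 12, 11 and 10 of 14 were lower in the other series. Among the WC, CC, LD and DD series, WC series 2 is also the only one whose centring hours could not be recovered from the data. The controls were not checked for this. Without it, 7 of 39 probe sets (17.9%) were called, all lower in the warm phase, where 10.1% of all features were called, and 32 of 39 lay below 0 (median −0.182, against −0.041 over all features). The called sets were both of rpn-2 (−1.12, adjusted p = 0.00943, and −0.55, adjusted p = 0.0283), rpn-1 (−0.54, adjusted p = 0.0235), pbs-2 (−0.45, adjusted p = 0.0265), the lid gene rpn-5 (−0.32, adjusted p = 0.0283), pbs-5 (−0.39, adjusted p = 0.0313) and pas-1, an α ring gene (−0.34, adjusted p = 0.0337). Series 2 was singled out by the direction of these same members, so the calls and p-values without it are no support for a lower warm phase. The labels give no reason to leave series 2 out, so the fit with all 5 series is the one used elsewhere. No member was called at the temperature steps themselves: 0 of 39 between hour 2 and hour 22 (0% of all features, 5 members with an unadjusted p under 0.05) and 0 of 39 between hour 14 and hour 10 (0.098% of all features, 0 members with an unadjusted p under 0.05).

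On the CC day 0 of 39 probe sets were called in limma, where 0.474% of all features were (55.1% of these higher, and 72% after centring each array on its floor), and most estimates had the opposite sign to those in WC. The members' median difference between subjective warm and subjective cold hours was 0.123, against −0.011 over all features, and 29 of 39 lay above 0. An unadjusted p under 0.05 was seen for 8 of 39 (20.5%), against 17.4% of all features. In the regulatory particle 18 of 19 genes lay above 0, and in the core 6 of 14. By subgroup the medians were −0.075 in the α ring, 0.103 in the β ring, 0.181 for the ATPases, 0.345 for the other base subunits and 0.111 in the lid.

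The lowest p values belonged to the paralogs rpn-6.2 and rpn-6.1, and they ran in opposite directions. rpn-6.2 averaged −0.95, −1.38 and −2.07 at the subjective warm hours of CC series 3, 4 and 6, against 0.48, −0.33 and 0.67 at the subjective cold hours, and was lower in the subjective warm phase in all 3 series (difference −1.74 ± 0.38 SE, adjusted p = 0.0581). rpn-6.1, whose product in other species clamps the lid to the core, averaged 0.3, 0.39 and 0.6 at the subjective warm hours, against −0.082, −0.15 and −0.014 at the subjective cold hours. It was higher in the subjective warm phase in all 3 series, and its series means did not overlap between the phases (difference 0.51 ± 0.11 SE, adjusted p = 0.0596). Both values lay just outside the threshold. After quantile normalisation both were called (2 of 39, where 0.953% of all features were), after floor-centring rpn-6.1 was called (1 of 39, 0.801% of all features), and without CC series 3 rpn-6.1 and rpn-2 were called (2 of 39, 5.75% of all features).

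Of the other CC genes, rpn-7 averaged 0.23, 0.17 and 0.31 at the subjective warm hours, against 0.0098, −0.13 and 0.064 at the subjective cold hours (difference 0.25, adjusted p = 0.202). pbs-5 averaged 0.026, 0.35 and 0.34, against −0.11, −0.057 and −0.036 (difference 0.3, adjusted p = 0.237). Both genes had higher subjective warm hours in every series, although pbs-5 differed least in series 3. rpn-11 averaged −0.045, 0.56 and 0.48 at the subjective warm hours, against −0.0096, −0.26 and 0.079 at the subjective cold hours (difference 0.39, adjusted p = 0.258). rpn-2 averaged 0.16, 0.46 and 0.61 at the subjective warm hours, against −0.12, −0.3 and 0.11 at the subjective cold hours (difference 0.51, adjusted p = 0.263), and its second probe set gave 0.91 (adjusted p = 0.237). The subjective warm mean exceeded the subjective cold mean in every series for these 4 genes, except for rpn-11 in series 3.

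**Figure D2:**
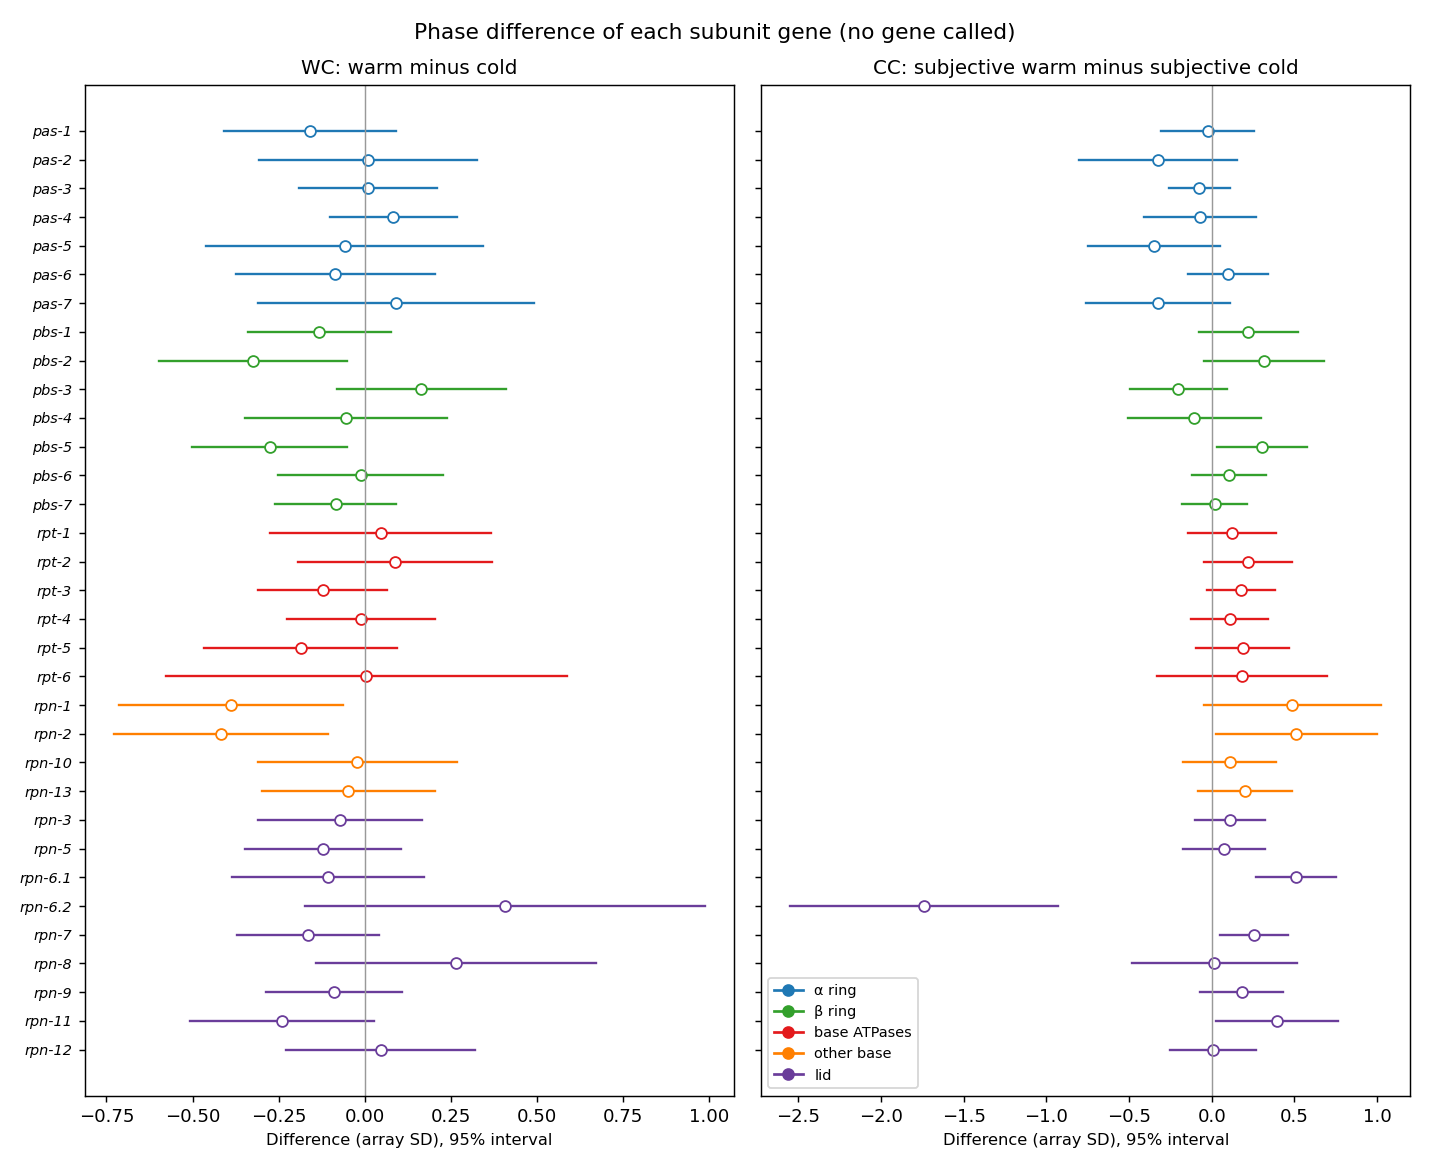
Phase difference of each of the 33 subunit genes with its 95% interval (array SD) in WC (left, warm minus cold) and CC (right, subjective warm minus subjective cold), coloured by subgroup, with a single probe set for each gene; open points did not pass the adjusted threshold. In CC, rpn-6.2 lies far to the left at −1.74 and 18 of the 19 regulatory genes lie right of 0.

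Whether the phase difference in WC differed from that in CC was tested directly in a joint fit. Here 5 of 39 probe sets (12.8%) were called, where 4.06% of all features were, and 13 of 39 (33.3%) had an unadjusted p under 0.05, against 19.2% of all features. The members' median was −0.183, against 0.007 over all features. In 4 of the 5 called sets the WC difference was the lower, and these belonged to rpn-2, rpn-10 and pbs-5. In the fifth, rpn-6.2, it was the higher.

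For rpn-2 the phase difference was −1.14, 0.115, −0.45, −0.091 and −0.51 in WC series 1, 2, 3, 4 and 6, and 0.27, 0.76 and 0.5 in CC series 3, 4 and 6. All CC values lay above all WC values, and the difference between WC and CC was −0.93 (95% interval −1.46 to −0.39, adjusted p = 0.0365). The second rpn-2 set gave −1.72 (−2.7 to −0.74, adjusted p = 0.0344). pbs-5 had differences of −0.78, 0.178, −0.22, −0.22 and −0.34 in the WC series and of 0.13, 0.41 and 0.38 in the CC series. WC series 2 therefore fell among the CC values, and the joint estimate was −0.58 (−0.93 to −0.24, adjusted p = 0.0419).

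rpn-10, a ubiquitin receptor, has 2 probe sets with unequal results. The called set had differences of −0.63, 0.013, −0.25, 0.019 and −0.58 in the WC series and of 0.26, 0.88 and 0.29 in the CC series (difference −0.76, −1.13 to −0.4, adjusted p = 0.0115). Its WC and CC values did not overlap. The other set, by which the gene is represented elsewhere here, gave −0.13 (−0.55 to 0.29, adjusted p = 0.769).

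rpn-6.2 had differences of 0.6, 1.06, 0.56, −0.24 and 0.054 in the WC series and of −1.43, −1.04 and −2.75 in the CC series. Each CC value was below each WC value, so that rpn-6.2 moved against the other called subunits (2.15, 1.19 to 3.1, adjusted p = 0.00722). Just outside the threshold lay rpn-6.1 (−0.62, adjusted p = 0.0592), rpn-1 (−0.88, adjusted p = 0.0672), rpn-11 (−0.63, adjusted p = 0.0799), pbs-2 (−0.64, adjusted p = 0.0809) and rpn-7 (−0.42, adjusted p = 0.093). The count of calls was sensitive to single series: it was 0 without CC series 6, 1 (rpn-6.2) without CC series 4, 2 (rpn-6.2 and rpn-10) without WC series 1, 3 or 6, 8 without CC series 3 and 12 without WC series 2. Using only the series present in both conditions (3, 4 and 6), 6 sets were called. The shares of all features called in these refits are not given here. The counts therefore show dependence on single series and are no result about the subunits.

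Counted over genes, 19 of 33 were lower at the warm hours of WC and higher at the subjective warm hours of CC, 6 the reverse, 3 lower in both and 5 higher in both. The 19 comprised 13 of 19 regulatory genes, among them all 4 of the other base subunits and 6 of 9 lid genes, and 6 of 14 core genes, of which 5 lay in the β ring and 1 in the α ring.

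**Figure D3:**
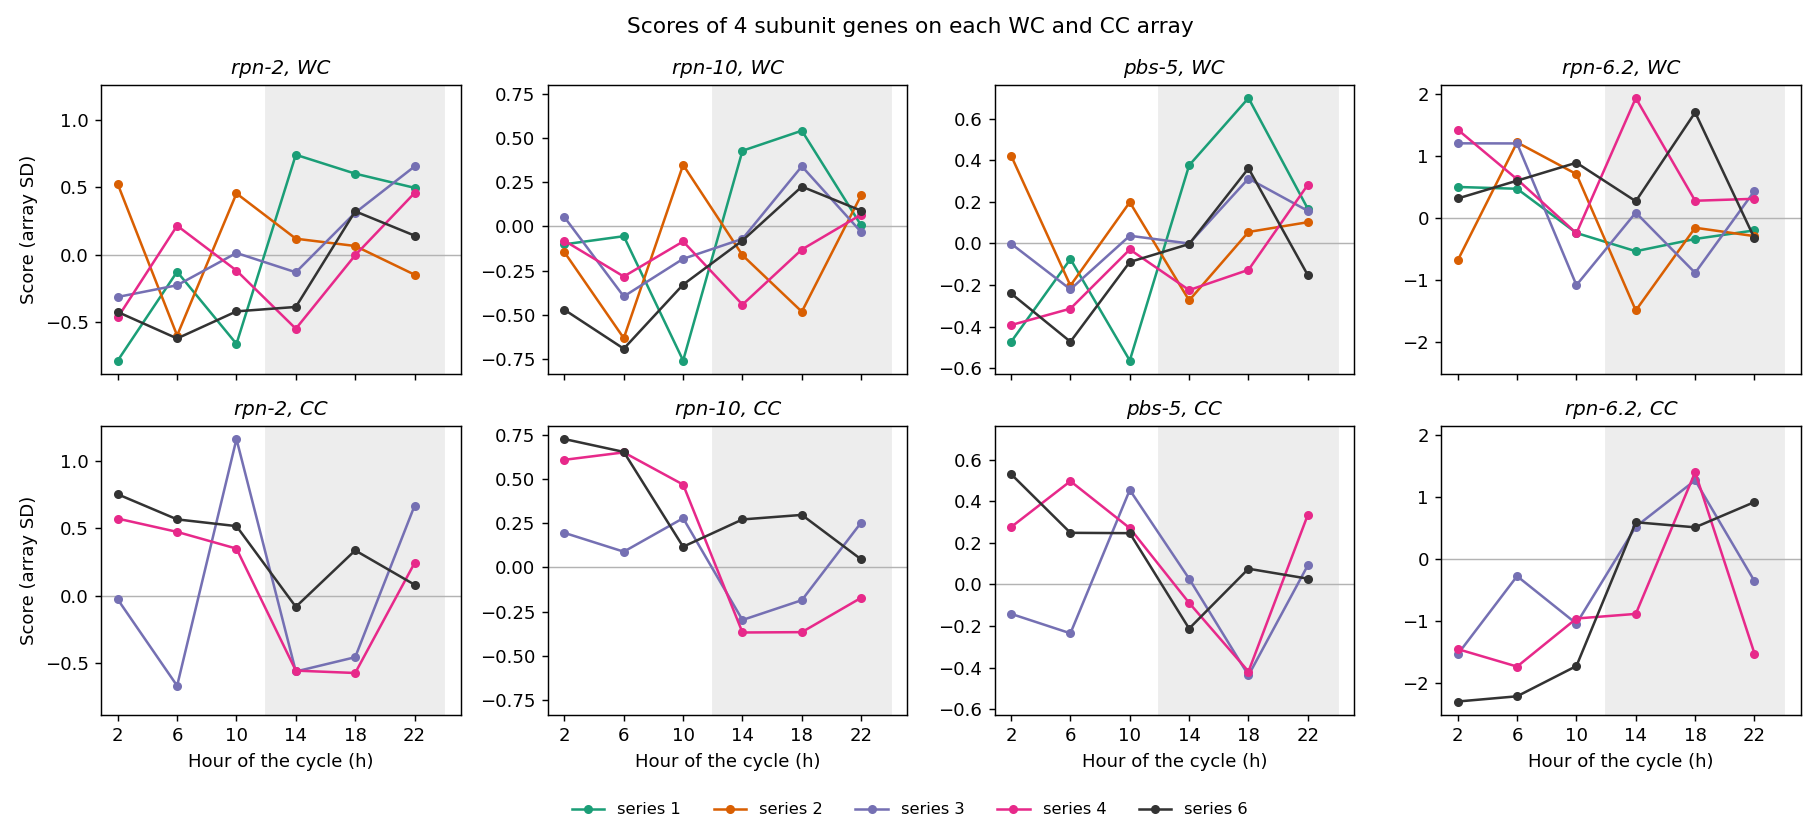
Scores (array SD) of rpn-2, rpn-10 (the called probe set), pbs-5 and rpn-6.2 on every WC array (top) and CC array (bottom) against the hour of the cycle, with a line for each time series and the cold or subjective cold hours shaded. The phase difference of rpn-10 was 0.88 in CC series 4, and that of rpn-6.2 was −1.43, −1.04 and −2.75 in CC series 3, 4 and 6.

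Markers of other RNA sources were read from the same fits. Of 9 zygotic embryo genes, 2 were called lower in WC (vet-6 and tbx-38) and 0 in CC, where 1 had an unadjusted p under 0.05. Their median phase difference was −0.41 in WC and 0.62 in CC, the same signs as the medians of the subunits. For WC against CC the list's median difference was −1.408, with vet-6 (−4.45, adjusted p = 2.04e-05), tbx-37 (−4.48, adjusted p = 0.0382) and tbx-38 (−2.58, adjusted p = 0.0388) called lower, 0 called higher and 3 of 9 above 0. The list's median score lay between −1.69 and 0.0005 on the warm arrays and between −0.37 and 0.9 on the cold arrays of WC. On the CC arrays it lay between −0.39 and 2.35 at subjective warm hours and between −0.41 and 0.84 at subjective cold hours. All 9 genes passed the floor filter in both conditions. With limma, 0 of 13 oocyte and eggshell genes were called in WC or CC (medians −0.14 and −0.068, 3 at an unadjusted p under 0.05 in each). The same held for sperm genes (0 of 6 and 0 of 5), body wall muscle genes (0 of 4 in each) and intestinal genes (0 of 5 and 0 of 3), among which 1 intestinal gene in WC had an unadjusted p under 0.05. Of 6 heat shock genes 1 was called in WC, hsp-70, a cytosolic chaperone gene (3.52, adjusted p = 0.0476). The part of these sources in the subunit results was not tested.

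In light cycles, in which 15.8% of all features differed between light and dark, 0 of 39 subunit probe sets were called, and 1 of 39 (2.56%) had an unadjusted p under 0.05, against 33.5% of all features. The members' median was −0.114, against −0.071 over all features, and 32 of the 33 genes lay below 0. Both the median and the share of all features called changed when a series was left out or a trend was added. Without LD series 3 the members' median was −0.024 and 0.0442% of all features were called, and without LD series 6 the median was −0.216 and 0% of all features were called. With a linear trend over the day added, the members' median was 0.174 and 0% of all features were called. Over a single day such a trend nearly coincides with the phase difference, so this fit separates them poorly. pas-4, an α ring subunit, averaged −0.23, −0.07 and 0.11 at the light hours of LD series 3, 4 and 6, against 0.21, 0.088 and 0.19 at the dark hours. It was lower in the light in all 3 series, by −0.23 (95% interval −0.47 to 0.023, adjusted p = 0.188). rpn-8, the lid partner of rpn-11, averaged −0.27, 0.03 and −0.083 in the light, against 0.28, 0.04 and 0.15 in the dark, with little difference in series 4 (−0.27, adjusted p = 0.192). pbs-7, a β ring subunit, averaged −0.15, −0.39 and −0.014 in the light, against 0.14, −0.08 and −0.019 in the dark, with almost none in series 6 (−0.2, adjusted p = 0.217).

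On the DD day 0 of 39 were called, where 0.0122% of all features were, with 7 of 39 (17.9%) at an unadjusted p under 0.05, against 15.6% of all features. The median over members was −0.192, against −0.019 over all features, and 5 of 39 lay above 0. Lid genes came first. rpn-11 averaged −0.13, 0.3 and 0.097 at the subjective light hours of DD series 2, 4 and 6, against 0.18, 0.77 and 0.34 at the subjective dark hours (−0.34, adjusted p = 0.201). rpn-7 averaged −0.21, −0.082 and −0.0035, against 0.26, 0.39 and 0.058 (−0.34, adjusted p = 0.21). rpn-12 averaged −0.15, −0.25 and −0.072, against 0.15, 0.4 and −0.052 (−0.32, adjusted p = 0.24). All 3 lid genes were lower at subjective light hours in every DD series, by least in series 6.

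The phase difference in LD was not shown to differ from that in DD for any subunit (0 of 39, where 0.00598% of all features were called, and 0 of 39 at an unadjusted p under 0.05), with a median half-width of the members' intervals of 0.378. Nor was the difference in WC shown to differ from that in LD (0 of 39, where 4.26% of all features were called, and 2 of 39 at an unadjusted p under 0.05). In the controls, 0 of 39 were called, as were 0% of all features, and 0 had an unadjusted p under 0.05. There rpn-8 averaged 1.12 and −0.26 at hours 2 to 10 of series 4 and 6, against −0.53 and 0.24 at hours 14 to 22, so the series disagreed in sign (0.69, adjusted p = 0.977). In series 6 the mean of hours 2 to 10 lacks hour 6. rpt-6, an ATPase gene, averaged −0.017 and 0.42, against −0.18 and −0.32 (0.42, adjusted p = 0.977). Zygotic embryo markers were lower in the light in LD (4 of 8 called, 0 higher, median −1.92). Their median was −1.51 in DD (0 of 7 called, 5 at an unadjusted p under 0.05) and −0.06 in the controls (0 of 8 called, 0 at an unadjusted p under 0.05). In LD body wall muscle genes (3 of 4) and intestinal genes (2 of 3) were called higher in the light. The part of these sources in the subunit values was not tested.

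For a 24-h rhythm, fitted as a sine wave with limma, 0 of 39 probe sets were called in WC (6.29% of all features), CC (0.0121%), LD (1%), DD (0%) or the controls (0%). At an unadjusted p under 0.05 there were 6, 3, 0, 5 and 0 members. The lowest adjusted p was 0.103 in WC (the second rpn-2 set, amplitude 0.66, peak at hour 19.6) and 0.156 in CC (rpn-6.2, amplitude 1.31, peak at hour 17.2). The median fitted amplitude was smaller for members than for all features kept by the filter, which removes the least variable sets, in each condition. It was 0.119 against 0.293 in WC, 0.141 against 0.282 in CC, 0.133 against 0.387 in LD, 0.168 against 0.312 in DD and 0.174 against 0.372 in the controls.

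The screen described in the study's methods, an analysis of variance followed by permutation of the power at 24 h, gave other calls, each without adjustment over features. Run with 100 permutations and without its further filters, it passed 4 of 39 in WC (pbs-2, pbs-7, rpn-2 and rpn-8), where 11.4% of all features passed. It passed 2 of 39 in CC (rpn-6.1 and rpn-6.2), where 2.29% of all features passed. It passed 0 of 39 in LD (8.29% of all features), 3 of 39 in DD (rpn-8, rpn-12 and rpt-3; 3.15% of all features) and 1 of 39 in the controls (rpn-2; 0.676% of all features).

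The regulatory particle and the core were compared by the medians of their genes, with no test. In WC the median phase difference was −0.072 for the regulatory particle and −0.057 for the core, with SDs between the 5 series of 0.295 and 0.146. In CC the medians were 0.181 for the regulatory particle and −0.048 for the core, with SDs between the 3 series of 0.147 and 0.037. The regulatory minus core gap in CC was 0.23 (SD 0.144), the only condition in which this gap exceeded its SD between series. In LD the medians were −0.114 and −0.131 and in DD −0.261 and −0.095, and the gaps of 0.016 and −0.167 were within their SDs of 0.154 and 0.196. Without LD series 3 the regulatory median in LD was 0.0318. In the controls they were −0.062 and −0.05, with a gap of −0.012 (SD 0.131, 2 series). By series, the CC gap came from series 4 and 6: regulatory medians were 0.0023, 0.296 and 0.166 in CC series 3, 4 and 6, against core medians of −0.0087, 0.012 and −0.06.

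How many genes of a particle lay on the same side of 0 was counted on each array. At least 75% of the 19 regulatory genes shared a sign on 44 of the 95 arrays (46.3%), and at least 75% of the 14 core genes on 23 of the 95 (24.2%). The share for the regulatory particle was 66.7% in CC, 50% in DD, 46.7% in WC, 33.3% in LD and 27.3% in the controls. For the core it was 16.7% in CC, 22.2% in DD, 20% in WC, 33.3% in LD and 36.4% in the controls. These counts are descriptions, since genes on the same array share its scaling.

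The scores also allow the mean of a free-running day to be set against that of the entrained day before it, in the series where the authors centred both days together. Because of that centring, the day means of a series are mostly near mirror images around 0. A lack of overlap between the days therefore adds nothing to the sign of their difference in each series. The free-running day was also a day later in adult life, so regime and age cannot be told apart. Arrays at different hours served as replicates in these fits. The SEs and p-values therefore do not measure the spread over the 3 temperature or 2 light series. On the CC day, 13 of 39 probe sets (33.3%) were called against the WC day of series 3, 4 and 6, 12 higher and 1 lower, where 29.7% of all features were called. The share of members called was thus near that of all features. The members' median was 0.169, against −0.032 over all features.

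Most of the called sets belonged to the lid and the ATPases. In the core, pas-3 was the only called gene of the α ring and pbs-7 the only one of the β ring. rpn-9, a lid subunit, had day means of 0.174, 0.129 and 0.38 in CC series 3, 4 and 6, against −0.13, −0.149 and −0.259 in WC (0.41 ± 0.089 SE, adjusted p = 0.000643). The ATPase gene rpt-2 had 0.0877, 0.192 and 0.364 in CC, against −0.047, −0.206 and −0.25 in WC (0.38, adjusted p = 0.00262). Both genes were higher in CC in every series, by most in series 6. Also called higher were rpt-3, rpt-5, rpn-3, rpn-6.1, pas-3 and both sets of pbs-7, as well as a single set each of rpt-1 and rpn-10, whose other sets gave 0.094 (adjusted p = 0.418) and 0.128 (adjusted p = 0.357). rpn-6.2 was lower, with −0.235, −0.856 and −0.7 in CC, against 0.162, 0.721 and 0.576 in WC (−1.08, adjusted p = 0.0168). These calls depended on series 6, without which 0 of 39 were called, 4 of 39 had an unadjusted p under 0.05 and the median of the members was 0.12. The share of all features called without series 6 is not given here, so the loss is not read as particular to the subunits.

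On the DD day 17 of 39 (43.6%) were called against the LD day of series 4 and 6, 16 higher and 1 lower, where 46.3% of all features were called. The median of the members was 0.158, against −0.125 over all features. The single set that fell was again rpn-6.2, with day means of −1.42 and −0.916 in DD series 4 and 6, against 1.78 and 0.887 in LD (−2.5 ± 0.32 SE, adjusted p = 2.29e-06). Its paralog rpn-6.1 rose, with 0.322 and 0.194 in DD, against −0.354 and −0.196 in LD (0.53, adjusted p = 2.4e-05). Each gene changed in the same direction in series 4 and 6, and the directions were those of the temperature experiment.

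Catalytic β subunits were among the genes that rose: pbs-2 had 0.469 and 0.254 in DD, against −0.564 and −0.255 in LD (0.77, adjusted p = 3.51e-05), and pbs-5 had 0.377 and 0.128 in DD, against −0.447 and −0.123 in LD (0.54, adjusted p = 0.00058). pbs-1, the counterpart of the yeast subunit with the caspase-like site, rose by 0.41 (adjusted p = 0.00215). In the regulatory particle rpn-11 rose by 0.79 (adjusted p = 5.17e-05), rpt-2 by 0.68 (adjusted p = 5.68e-05) and rpn-9 by 0.5 (adjusted p = 0.00367). Also called were rpn-1, both sets of rpn-2, rpt-5 and single sets of rpt-1, rpn-10 and pbs-7. The other sets gave 0.13 for rpt-1 (adjusted p = 0.365), −0.0071 for rpn-10 (adjusted p = 0.961) and 0.23 for pbs-7 (adjusted p = 0.0631). In the α ring the sole call was pas-7, which rested on series 4: its day mean was 1.07 in DD, against −1.24 in LD, in series 4, and −0.0109 in DD, against 0.00655 in LD, in series 6 (1.14, adjusted p = 0.00181). Without series 4, 10 of the 38 probe sets then tested were called, where 35% of all features were. pas-2 and pas-4, both lower in DD, were among these, and pbs-1 and pbs-5 were not.

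The temperature and light experiments share no arrays. Called higher on both free-running days were 8 probe sets (rpt-2 with both sets, rpt-1, rpt-5, rpn-6.1, rpn-9, rpn-10 and pbs-7), and 1, rpn-6.2, was lower on both. These 9 are 69.2% of the CC calls and 52.9% of the DD calls. Over all 15366 features tested on both days, the calls shared in the same direction were 63.7% of the CC calls and 43.1% of the DD calls. No member was called in opposite directions. The overlap rests on CC calls that were absent without series 6.

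**Figure D4:**
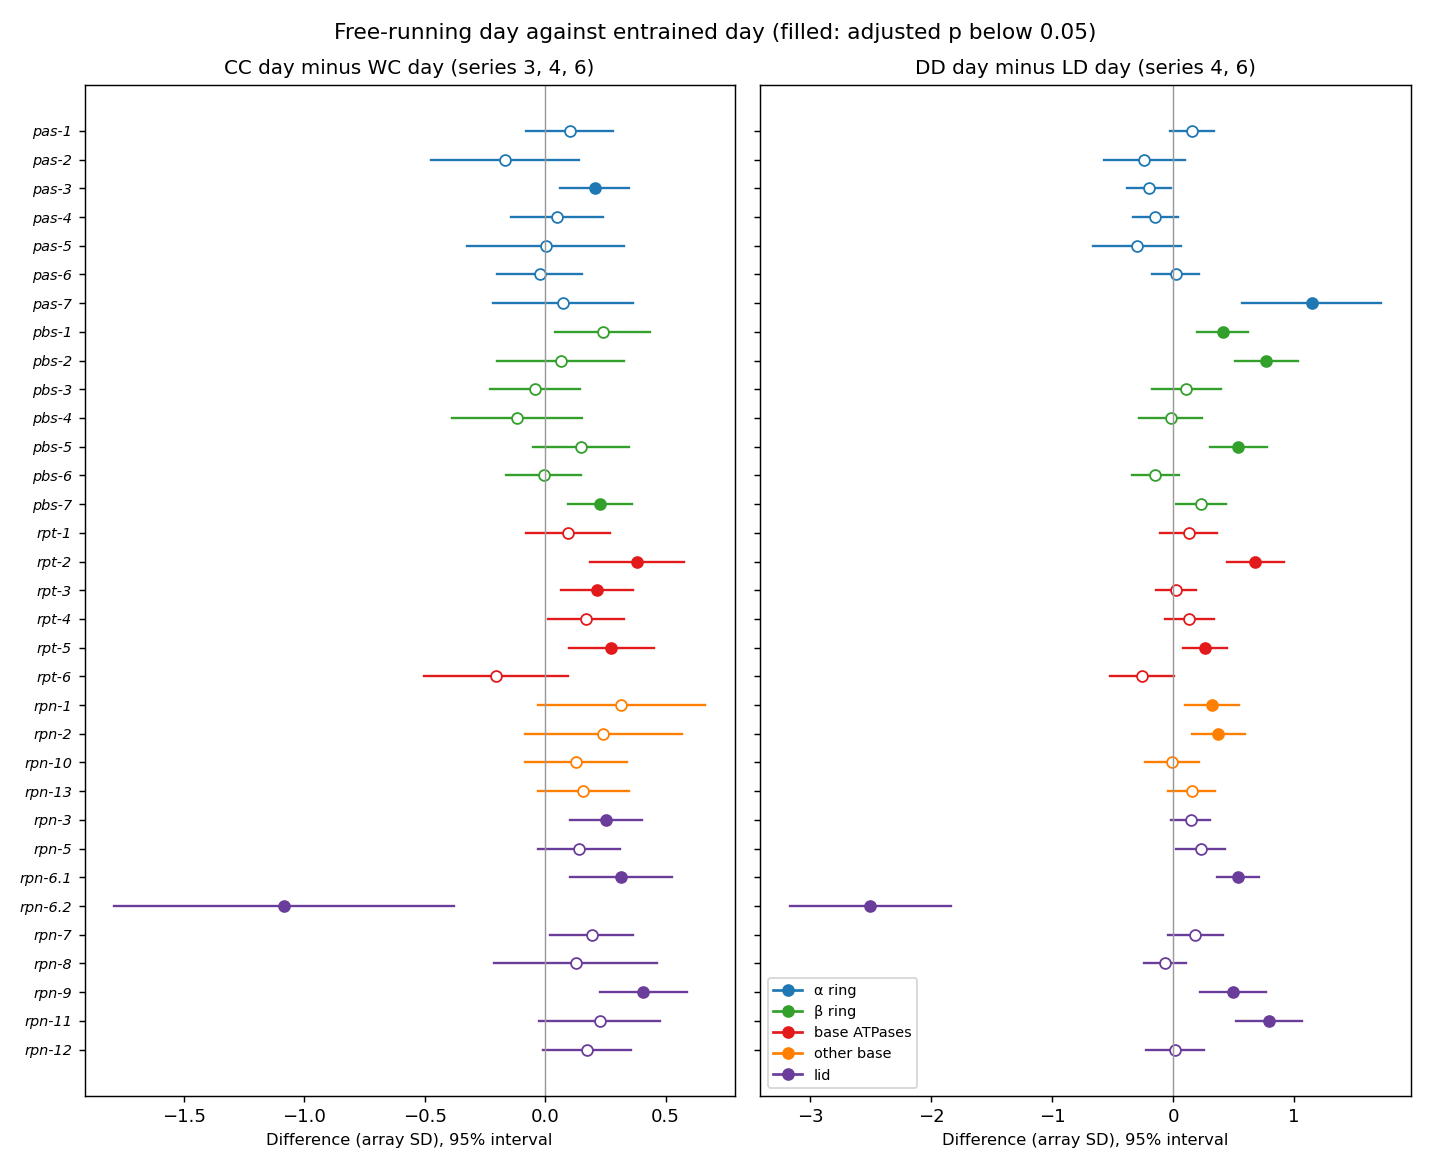
Difference in mean score (array SD, 95% interval) of each subunit gene between the CC and WC days (left) and between the DD and LD days (right), with a single probe set for each gene, so that rpt-1, rpn-10 and, in DD, pbs-7, which were called by their second set, appear as open points. Filled points passed the adjusted threshold, and rpn-6.2 lies apart at −1.08 and −2.5.

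Genes of the marker lists were also called on the free-running days, where 29.7% (CC day) and 46.3% (DD day) of all features were called. Of 9 zygotic embryo genes 4 rose and 1 fell on the CC day (median 0.85), and of 8 kept in LD and DD, 5 rose and 1 fell on the DD day (median 1.62). Body wall muscle genes fell (3 of 4 on the CC day, median −0.94, and 2 of 4 on the DD day, median −0.88). Of the sperm genes 2 of 5 fell on the CC day (spe-6, −1.41, and spe-39, −0.35) and 1 of 2 on the DD day (spe-39, −0.7). With so few sperm genes, these counts cannot be told from the shares of all features. The part of these sources in the day differences was not tested.

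The rest of the ubiquitin pathway was counted over a list of 44 genes, of which 32 had a probe set with a single symbol. In the phase comparisons 0 of 32 were called with limma in WC (13 above 0), CC (17 above 0), DD or the controls, and 3, 5, 6 and 0 had an unadjusted p under 0.05. In LD 2 of 32 fell in the light, where 15.8% of all features were called. They were ddi-1 (−0.44, adjusted p = 0.0347), a shuttle factor that brings substrates to the proteasome, and cul-4, a ubiquitin ligase scaffold (−0.9, adjusted p = 0.0421). Between WC and CC the sole call was rad-23, another shuttle factor (−0.86, adjusted p = 0.00965), where 4.06% of all features were called. Neither the LD count nor this one exceeded the share of all features. On the CC day 9 of 32 rose and 1 fell, where 29.7% of all features were called, and on the DD day 8 rose and 7 fell, where 46.3% of all features were called, so the shares called were near those of all features. Called higher on both days were usp-14, a deubiquitinating enzyme bound to the proteasome (0.38 on the CC day and 0.53 on the DD day), dss-1, a small lid subunit outside the naming rule (0.27 and 0.82), cul-1 (1.76 and 1.09) and skr-1 (0.28 and 0.48), the scaffold and adaptor of a ubiquitin ligase. Lower on both days was ubq-2, which encodes ubiquitin fused to a ribosomal protein (−0.15 and −0.4).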

How the data were processed

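The authors hybridised labelled cRNA made from total RNA to Affymetrix arrays and, per the submitters' processing notes, computed values with GCRMA in R 2.7.1. The deposited score is a log2 value relative to the mean of its time series, with each array standardised to mean 0 and variance 1, so depth or level cannot be had and the number of arrays limits the precision. Probe sets whose scores stayed near the array floor (the densest 5% of scores; root mean square distance up to 0.1 over a condition's arrays) were left out. Linear models with a term for the time series were fitted in R 4.3.3 with limma 3.58.1 and tested on simulated data, p-values were adjusted by Benjamini-Hochberg over all features, and adjusted p under 0.05 was called. The single arrays were the replicates in every fit, so SEs, intervals and p-values do not measure how an effect varies between independent series. In the day comparisons, LD and DD days, or WC and CC days, with the same series number were paired where the scores showed that they had been centred together. The joint fits of the phase difference had separate series terms for each condition and did not pair such days. Equal numbers across the light and temperature experiments were not paired.

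The members, subgroups and lists were chosen with earlier results of these data known. Values by series are given for up to 6 genes with the lowest phase p in WC and CC, 3 in LD and DD and 2 in the controls, and for called members that oppose the rest. A gene with 2 probe sets is represented by the ID ending in plain _at, then by the lowest number. All 33 genes matched RefSeq by gene ID. Figures were drawn with Python 3.11.15 and matplotlib 3.10.9. Alternatives were no floor filter, floor-centring, quantile normalisation, leaving out each series or the pooled arrays, no series term, a linear trend, an hour factor, a threshold of 0.01 and the methods' analysis of variance with 100 permutations (p under 0.05 and permuted p under 0.02).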

Additional observations from a re-analysis of the deposited data

Results flagged for a closer look

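WC series 2 lay far from the other series in 2 of 20 groups of WC series that were checked, where chance alone marks about 1 in 20 groups. The core median difference between warm and cold was 0.197 in series 2 and between −0.166 and −0.103 in the other 4 series. The regulatory median at hour 10 was 0.455 in series 2 and between −0.254 and −0.0747 in the others.

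The phase difference in WC differed from that in CC, by the test of the difference itself, for 5 probe sets. The difference between WC and CC was 2.15 for rpn-6.2, −0.76 for a single set of rpn-10, −0.93 and −1.72 for both sets of rpn-2 and −0.58 for pbs-5.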

How the results depend on the processing

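For single genes, 439 values kept their direction and their side of the threshold, 70 were no longer called, 12 became called and 6 changed sign. Of the counts and particle medians, 278 stayed within 1.5 times the count or within the SD between series, and 29 did not. Most comparisons had 0 members called to begin with, and a count that stayed at 0 was scored as unchanged. In WC the SD between series was larger than the median of each particle. The 278 is therefore not a measure of stability. Some particle medians within that SD crossed 0 on leaving out a series: the LD regulatory median (0.0318), the core median in the controls (0.0804), and the regulatory minus core gap in WC (0.022 and 0.0329), LD (−0.0492 and −0.0555) and the controls (0.0756). The gap in the controls also did so as a mean over genes (0.0258) and without rpn-10, rpn-13 and rpn-6.2 (0.00733). The counts of called probe sets that moved were as follows. Where no share of all features stands beside a count, the count is no result about the subunits. For warm against cold in WC, leaving out a series gave 0 to 7 calls. For CC, there were 4 without the floor filter (28.3% of all features), 1 after floor-centring (132 of all features, against 78), 2 after quantile normalisation (157 of all features) and 0 to 2 on leaving out a series. For WC against CC, there were 8 after quantile normalisation, 2 without pooled arrays, 1 at a threshold of 0.01 and 0 to 12 on leaving out a series. For the CC day there were 6 at a threshold of 0.01 and 0 to 12 on leaving out a series, and for the DD day 10 to 13. For hour 2 against hour 22 there was 1 without the floor filter. For the 24-h rhythm, leaving out a series gave 0 to 1 in WC, and analysis of variance with permuted power gave 4 in WC, 2 in CC, 3 in DD and 1 in the controls. The core median in CC was 0.00323 after floor-centring and −0.0381 to −0.00116 on leaving out a series. The regulatory median in the controls was −0.0232 after floor-centring, −0.00468 as a mean over genes and −0.0669 to −0.0296 on leaving out a series.

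With an added linear trend, which over a single day is hard to separate from the phase difference, the members' median changed sign in LD. It was −0.0073 in WC, 0.367 in CC, 0.174 in LD, −0.139 in DD and −0.157 in the controls. Signs also turned with that trend for pbs-2 (0.206) and rpn-11 (0.189) in WC, rpn-8 in LD (0.0948) and rpt-6 in the controls (−0.418), none of them called. On leaving out a series, rpn-8 in the controls lay between −0.503 and 1.65 and pas-7 between DD and LD between −0.0174 and 2.31. The cause was not tested. Without the series number as a replicate block, 6 probe sets were called for WC against CC, 14 on the CC day, 17 on the DD day and 0 in each other comparison, so the block changed no count by over 1.5 times. The fit on series 3, 4 and 6 alone, with 6 calls, was chosen after seeing the data. Because scores hold no level, a change of a whole array's scale or in the amount of RNA was not measurable.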
